A study of Rattus norvegicus with 4 samples.

Results

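The cells described here are the fibroblasts that remained in the rat esophagus 7 days after a single X-ray dose of 35 Gy. They were chosen from single-cell RNA counts by a gate: at least 500 UMIs (unique molecular identifiers, each standing for 1 captured transcript), at most 20% mitochondrial UMIs, at least 100 UMIs per 10000 from Col1a1, Col3a1, Dcn and Lum together, no Ptprc UMI and fewer than 2 UMIs of Myh11 and Rgs5 together. The gate found 617 of the 9744 cells of the irradiated pool, and the 4 libraries of the series held 40724 cells in all. The same gate found 4397 of the 11818 cells of the unirradiated pool, which is the comparison throughout. The rule also asked for no Pecam1 UMI, but no feature name in the matrices matched Pecam1, so that criterion could not be applied.

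Fibroblasts build and turn over the collagen-rich matrix of the esophageal wall. They also act as sentinels: on sensing tissue damage or cytokines such as IL-1, TNF and IL-17 they secrete chemokines that draw in neutrophils and monocytes, IL-6 family cytokines, complement and acute-phase proteins, largely through the transcription factor NF-kB and its partners. After injury some become contractile, matrix-depositing myofibroblasts under TGF-beta, and in radiation injury this matrix programme is known for its part in late fibrosis.

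The series used male Sprague-Dawley rats, 6 weeks old, whose esophageal region was exposed to X-rays. The 35Gy_7d group took the dose of 35 Gy as 1 exposure, the 5x7Gy_7d and 5x7Gy_14d groups took 5 daily fractions of 7 Gy, and the 0Gy_7d group took 5 fractions of 0 Gy. Esophagi were collected at day 7, or at day 14 for 5x7Gy_14d. In each group the esophagi of 5 rats were pooled before digestion with collagenase, DNase and trypsin, so a group is 1 sample with no replicate, no test between groups is possible, and every interval below covers counting error only. All pools went through cold storage, shipment and a dead cell removal step, and RNA was captured with 10x Genomics 3' chemistry.

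Gated cells made up 6.33% of cells in the 35Gy_7d pool (exact 95% interval 5.86 to 6.83%) and 37.2% in the 0Gy_7d pool (36.3 to 38.1%), a share 5.88-fold lower after the single dose (5.40 to 6.40). The fractionated pools held 119 gated cells at day 7, or 1.31%, and 3344 at day 14, or 33.2%. A share is relative to the other cells of the pool, so a loss of fibroblasts, an influx of other cells and an unequal release of cells by digestion cannot be told apart. Leukocyte-gated cells numbered 3531 in the 35Gy_7d pool and 237 in the 0Gy_7d pool. Barcodes over the mitochondrial limit were 15.2% of the 35Gy_7d barcodes and 5.49% of the 0Gy_7d barcodes, and the gate does not see fibroblasts among them.

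**Figure D1:**
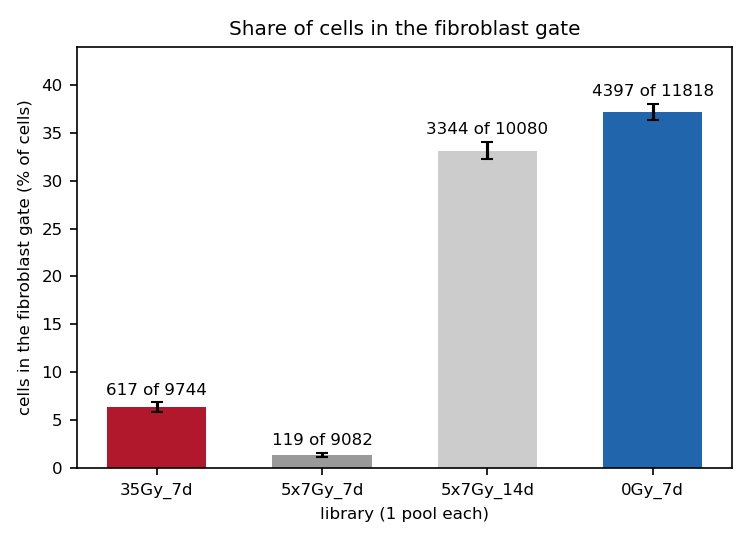
Cells in the fibroblast gate as a percent of all cells passing the UMI and mitochondrial limits, 1 bar per library (1 pool of 5 rats each), with exact 95% binomial intervals. The 35Gy_7d pool had 6.33% and the 0Gy_7d pool 37.2%.

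Fibroblast markers outside the gate were present in the gated cells. The median cell had 251 UMIs of the 4 gate genes per 10000 in 35Gy_7d and 313 in 0Gy_7d. Just inside the threshold (100 to 120) lay 36 cells of 35Gy_7d and 188 of 0Gy_7d, and just outside it (80 to 100) lay 45 cells of 35Gy_7d and 171 of 0Gy_7d. Pdgfra, the PDGF receptor that marks fibroblasts, stood at 523 CPM (counts per 1000000 UMIs of the summed gated cells) in 35Gy_7d and 129.9 CPM in 0Gy_7d. The sum over the 7 listed fibroblast markers outside the gate (Pdgfra, Pdgfrb, Mfap5, Dpt, Gsn, Fbln1 and Cxcl6) ran the other way, at 10506 CPM in 35Gy_7d and 24757 CPM in 0Gy_7d, most of it from Gsn (gelsolin, an actin-severing protein) at 5729 CPM in 35Gy_7d and 18243 CPM in 0Gy_7d. The blood endothelial markers left unguarded by the missing Pecam1 summed to 24.5 CPM over 9 genes in 35Gy_7d and 78.4 CPM in 0Gy_7d, with Cdh5 at 2.35 CPM in 35Gy_7d and 11.1 CPM in 0Gy_7d. The 6 lymphatic endothelial markers ran the other way, at 637 CPM in 35Gy_7d and 303 CPM in 0Gy_7d. Pdpn led their sum in 35Gy_7d, at 609.8 CPM and with Flt4 at 0, and Ccl21 led it in 0Gy_7d, at 177 CPM. T cell, B cell and dendritic markers were at or near 0 in both.

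Markers of other cells were not equal between the pools. Over 10 neutrophil markers the sum was 314 CPM in 35Gy_7d and 19.8 CPM in 0Gy_7d, led by S100a8, with Cxcr2 and Ngp at 0 in 35Gy_7d. Over 11 macrophage and monocyte markers, none of them at 0, it was 502 CPM in 35Gy_7d and 72.3 CPM in 0Gy_7d. In both pools this sum was led by Plac8, at 264 CPM in 35Gy_7d and 21.8 CPM in 0Gy_7d. Over 8 mural markers it was 519.7 CPM in 35Gy_7d, led by Abcc9 and with Notch3 at 0, and 243 CPM in 0Gy_7d. Glial markers ran the other way, at 81.2 CPM over 9 genes in 35Gy_7d and 468 CPM in 0Gy_7d. Cryab alone made up 234 CPM of that 0Gy_7d sum. The 12 epithelial markers were near equal, at 942 CPM in 35Gy_7d and 997 CPM in 0Gy_7d. The part of such RNA in the inflammatory values below was not tested. Because free RNA from abundant neighbours enters every droplet, a gene is said to meet the free RNA rule when, in the library where it is higher, its CPM in the gate is at least 0.5 times its highest CPM among epithelial, endothelial, leukocyte and mural cells. S100a8, the neutrophil alarmin, did not meet it.

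Of 12276 genes with at least 20 UMIs in the pair, 1162 (9.47%) were at least 2-fold higher in 35Gy_7d cells, and 1670 (13.6%) were lower by the same margin, with a median log2 ratio of 0.016. These shares are the background against which the lists below are read. The gated 35Gy_7d cells gave 3829280 UMIs in all, with a median of 4522 per cell, and the 0Gy_7d cells 30267380, with a median of 7031. Lists of genes are described by counts and medians, not tested, and they were drawn up with earlier results of these data known. Changes within cells and a different mix of surviving fibroblast types cannot be told apart in summed counts.

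Promoters of 6 inflammatory genes that hold a match to the NF-kB consensus are shown first, because NF-kB is a well known regulator of this programme and its target genes differed in both directions. The sequences are RefSeq promoters of rat build GRCr8 from 250 bases before to 50 bases after the annotated start, read 5' to 3' on the gene's strand. Capitals mark matches to the NF-kB consensus, searched on both strands, where 2 matches overlap as 1 run. The first 4 genes were higher in 35Gy_7d cells by 2-fold or more, the last 2 lower by as much. They were picked for holding a match and after their values were seen, and are not the 6 that differed most: among the 10 genes with the largest fold upward by the naming rule, 6 had a promoter in the table and 2 of these, Cxcl6 and Lcn2, held a match.
Cxcl6 (chr14:17596368-17596667, minus strand): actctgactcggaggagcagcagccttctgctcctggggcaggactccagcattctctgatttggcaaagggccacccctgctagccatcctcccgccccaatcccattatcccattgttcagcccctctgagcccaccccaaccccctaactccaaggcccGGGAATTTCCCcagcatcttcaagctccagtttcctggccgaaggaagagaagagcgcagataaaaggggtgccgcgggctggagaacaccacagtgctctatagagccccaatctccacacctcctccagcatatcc
Lcn2 (chr3:36081731-36082030, minus strand): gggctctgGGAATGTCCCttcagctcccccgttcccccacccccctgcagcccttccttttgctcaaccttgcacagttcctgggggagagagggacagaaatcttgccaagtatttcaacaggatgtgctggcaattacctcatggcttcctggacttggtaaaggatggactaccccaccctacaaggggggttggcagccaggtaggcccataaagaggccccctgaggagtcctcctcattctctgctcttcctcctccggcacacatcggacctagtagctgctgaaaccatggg
Ccl7 (chr10:67513845-67514144, plus strand): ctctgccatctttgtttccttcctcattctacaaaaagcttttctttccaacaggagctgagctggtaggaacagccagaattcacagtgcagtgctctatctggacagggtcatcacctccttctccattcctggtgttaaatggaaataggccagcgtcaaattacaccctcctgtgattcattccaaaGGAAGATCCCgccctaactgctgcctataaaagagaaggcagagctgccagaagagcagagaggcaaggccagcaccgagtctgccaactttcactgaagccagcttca
Ptx3 (chr2:152797313-152797612, plus strand): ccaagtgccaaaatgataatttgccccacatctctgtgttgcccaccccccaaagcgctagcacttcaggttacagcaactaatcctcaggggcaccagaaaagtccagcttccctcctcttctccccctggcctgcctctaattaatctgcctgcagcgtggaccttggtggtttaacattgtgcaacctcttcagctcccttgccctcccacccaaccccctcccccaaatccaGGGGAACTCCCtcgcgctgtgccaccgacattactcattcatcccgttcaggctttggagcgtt
Nfkbia (chr6:78597023-78597322, minus strand): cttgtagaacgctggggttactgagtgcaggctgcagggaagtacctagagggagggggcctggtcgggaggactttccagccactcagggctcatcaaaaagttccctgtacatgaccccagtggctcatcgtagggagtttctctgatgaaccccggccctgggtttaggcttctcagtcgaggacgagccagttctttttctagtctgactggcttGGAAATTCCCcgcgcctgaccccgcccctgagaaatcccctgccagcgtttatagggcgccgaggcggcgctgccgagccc
Irf1 (chr10:38417685-38417984, plus strand): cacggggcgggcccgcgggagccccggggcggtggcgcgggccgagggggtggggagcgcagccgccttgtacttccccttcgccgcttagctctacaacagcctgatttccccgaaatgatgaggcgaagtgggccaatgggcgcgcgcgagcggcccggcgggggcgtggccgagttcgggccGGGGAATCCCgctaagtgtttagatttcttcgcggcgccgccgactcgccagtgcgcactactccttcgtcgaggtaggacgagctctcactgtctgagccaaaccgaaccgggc
The consensus occurred in 7.51% of 33469 RefSeq promoters of this length. Among inflammatory list genes with a promoter in the table, it occurred in 16 of 57 that were at least 2-fold higher (28.1%), 5 of 12 that were at least 2-fold lower (41.7%) and 14 of 45 within 2-fold (31.1%). A match is a description of letters and says nothing of binding.

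Chemokines for neutrophils stood out. Of 8 listed, 6 were measured, 4 were higher by 2-fold or more and none was lower by as much, with a median log2 ratio of 4.29. Cxcl6, a CXCR2 ligand that attracts neutrophils, had 2897 UMIs or 757 CPM in 35Gy_7d cells and 2 UMIs or 0.0661 CPM in 0Gy_7d cells, a log2 ratio of 13.48 (95% counting interval 11.63 to 16.53). In the fractionated pools it stood at 6.85 CPM at day 7 and 0.656 CPM at day 14. The day 7 value rests on very few UMIs, because the 5x7Gy_7d gate held 292096 UMIs in all. The gate held 65.5% of all Cxcl6 UMIs of the 35Gy_7d library, although it held 3.69% of its UMIs overall. Most gated 35Gy_7d cells held no Cxcl6 UMI. Of the 2897 UMIs, 1369 lay in cluster 1 and 1259 in cluster 4, both described below. A Cxcl6 UMI was seen in 38.3% of cluster 1 cells and 38.8% of cluster 4 cells. In every other cluster the share was 17.0% or less.

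Cxcl3, another CXCR2 ligand, had 356 CPM in 35Gy_7d cells and 2.54 CPM in 0Gy_7d cells, 139.9-fold higher (111 to 178). Most of its UMIs in gated 35Gy_7d cells, 1214, lay in cluster 4, where 52.2% of cells held one. Cxcl3 stood at 1.70 CPM in cluster 1 and 2.03 CPM in cluster 3, below the 0Gy_7d level. Csf3, which encodes the granulocyte growth factor G-CSF, had 215 CPM in 35Gy_7d and 0.297 CPM in 0Gy_7d, 723-fold higher (379 to 1586). Endothelial-gated cells held more Csf3, at 339 CPM in 35Gy_7d and 10.7 CPM in 0Gy_7d. Of the 823 Csf3 UMIs in gated 35Gy_7d cells, 566 lay in the 67 cells of cluster 4, described below, and 149 in cluster 6, where 8.16% of 49 cells held a UMI. Cxcl1 was lower, at 2105 CPM in 35Gy_7d and 2644 CPM in 0Gy_7d. The 0Gy_7d cells thus held abundant Cxcl1 and very little Cxcl6, Cxcl3 or Csf3. The list's median ran between 1.45 and 7.13 over the processing alternatives.

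Chemokines for monocytes, eosinophils and lymphocytes were mostly higher as well, 10 of 15 measured by at least 2-fold and 2 lower, with a median log2 ratio of 1.86. Ccl11 (eotaxin, an eosinophil attractant) had 847 CPM in 35Gy_7d cells and 1.78 CPM in 0Gy_7d cells, 475-fold higher (363 to 633). The CCR2 ligand Ccl7 had 2298 CPM in 35Gy_7d and 107 CPM in 0Gy_7d, 21.6-fold higher. Ccl2, also a CCR2 ligand and abundant in both pools, had 2220 CPM in 35Gy_7d and 1008 CPM in 0Gy_7d, 2.20-fold higher (2.15 to 2.26). Cxcl14, a tissue chemokine, had 288 CPM in 35Gy_7d and 16.7 CPM in 0Gy_7d, 17.3-fold higher. Cxcl12 had 138 CPM in 35Gy_7d and 28.9 CPM in 0Gy_7d, 4.76-fold higher, but did not meet the free RNA rule.

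Shares of cells with a UMI were compared after thinning: 490 cells of 35Gy_7d and 3951 of 0Gy_7d were each reduced to 1000 UMIs, and shallower cells, 127 of 35Gy_7d and 446 of 0Gy_7d, were left out. Ccl7 was then seen in 52.4% of 35Gy_7d cells and 5.75% of 0Gy_7d cells, with 1.52% of epithelial and 7.06% of endothelial cells of the irradiated pool as the background of free RNA. Unthinned, the shares were 57.9% in 35Gy_7d and 12.7% in 0Gy_7d. For Ccl11 the thinned shares were 15.9% in 35Gy_7d and 0.228% in 0Gy_7d, with 0.469% in epithelial cells, and the unthinned ones 21.9% in 35Gy_7d and 0.705% in 0Gy_7d.

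Among IL-6 and IL-1 family cytokines 7 of 10 measured were at least 2-fold higher and 1 lower, with a median log2 ratio of 1.45 that ran from 0.33 to 2.13 over the processing alternatives. Il11, an IL-6 family cytokine with a known role in fibroblast activation, had 248 CPM in 35Gy_7d cells and 0.727 CPM in 0Gy_7d cells, 341-fold higher (224 to 546). Il6 itself stood at 111 CPM in 35Gy_7d and 88.3 CPM in 0Gy_7d, 1.26-fold higher, and this turned to a log2 ratio of -0.38 when the gate threshold was raised to 200 per 10000. Clcf1, a further member of the family, had 12.5 CPM in 35Gy_7d and 2.74 CPM in 0Gy_7d, 4.57-fold higher. Il1b, a myeloid cytokine, did not meet the free RNA rule.

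Receptors for these signals were higher too: 11 of 21 were at least 2-fold higher and none 2-fold lower, with a median log2 ratio of 1.11. Osmr, the oncostatin M receptor, had 129.5 CPM in 35Gy_7d cells and 10.5 CPM in 0Gy_7d cells, 12.3-fold higher (10.7 to 14.2). Il1r1, the signalling receptor for IL-1, had 44.9 CPM in 35Gy_7d and 3.93 CPM in 0Gy_7d, 11.4-fold higher. Il6st, the shared gp130 chain of IL-6 family receptors, had 76.3 CPM in 35Gy_7d and 18.9 CPM in 0Gy_7d, 4.04-fold higher, and Il13ra1, a receptor chain for IL-13, had 104 CPM in 35Gy_7d and 21.4 CPM in 0Gy_7d, 4.87-fold higher.

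NF-kB feedback and target genes differed in both directions. Of 20 measured, 6 were higher by 2-fold or more and 4 were lower by as much, with a median log2 ratio of -0.22. The free RNA rule was met by 16 of them, 6 higher and 3 lower by as much, with a median of 0.21. Sod2, the mitochondrial superoxide dismutase that NF-kB induces, had 5346 CPM in 35Gy_7d cells and 955 CPM in 0Gy_7d cells, 5.60-fold higher. The early feedback inhibitor Nfkbia had 231 CPM in 35Gy_7d and 1257 CPM in 0Gy_7d, 5.44-fold lower, and its relative Nfkbiz 60.6 CPM in 35Gy_7d and 360.4 CPM in 0Gy_7d, 5.95-fold lower. Irf1, an early response transcription factor, had 26.9 CPM in 35Gy_7d and 884 CPM in 0Gy_7d, 32.9-fold lower. Nfkbia and Irf1 were lower in the endothelial gate too, with log2 ratios of -1.71 and -4.69.

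**Figure D2:**
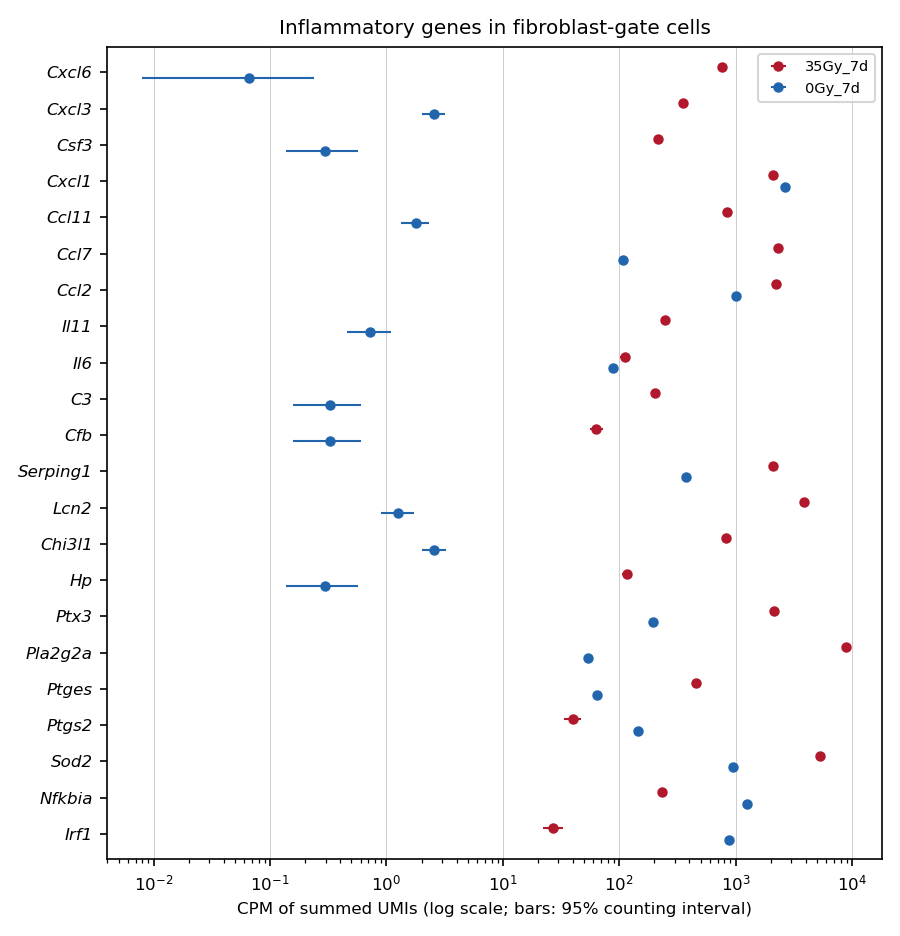
CPM of summed UMIs on a log axis for 22 inflammatory genes in gated cells of 35Gy_7d (617 cells) and 0Gy_7d (4397 cells), 1 pool each, with exact 95% Poisson intervals where wider than the point. Cxcl6, Lcn2, Csf3 and C3 lie far to the left in 0Gy_7d, Cxcl1 lies near its control level, and Nfkbia and Irf1 are lower in 35Gy_7d.

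Complement genes were higher in 12 of 14 measured cases by at least 2-fold and lower in the other 2, with a median log2 ratio of 1.97. C3, the central component of all activation routes, had 202 CPM in 35Gy_7d cells and 0.330 CPM in 0Gy_7d cells, 611-fold higher (330.4 to 1279). Cfb, the protease of the alternative route, had 63.7 CPM in 35Gy_7d and 0.330 CPM in 0Gy_7d, 193-fold higher (103 to 407). Serping1, the C1 inhibitor, had 2081 CPM in 35Gy_7d and 378 CPM in 0Gy_7d, 5.51-fold higher. C1s, the protease that Serping1 blocks, had 1751 CPM in 35Gy_7d and 435 CPM in 0Gy_7d, 4.03-fold higher.

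Acute-phase and alarmin genes had a median log2 ratio of 3.48, with 11 of 15 measured at least 2-fold higher and 1 lower. Lcn2, lipocalin 2, which withholds iron from bacteria, had 14729 UMIs or 3846 CPM in 35Gy_7d cells and 38 UMIs or 1.26 CPM in 0Gy_7d cells, a log2 ratio of 11.58 (11.12 to 12.08). It was seen in 40.2% of thinned 35Gy_7d cells and 0.177% of thinned 0Gy_7d cells, against 3.28% of epithelial, 6.08% of leukocyte and 48.6% of endothelial cells of the irradiated pool, so endothelial cells held it too. Unthinned, 53.8% of gated 35Gy_7d cells and 0.705% of gated 0Gy_7d cells held a UMI.

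Ptx3, a soluble pattern recognition protein, had 2154 CPM in 35Gy_7d and 195 CPM in 0Gy_7d, 11.0-fold higher (10.7 to 11.4). Chi3l1, a chitinase-like protein of inflamed tissue, had 830.2 CPM in 35Gy_7d and 2.58 CPM in 0Gy_7d, 322-fold higher. Of its 3179 UMIs in gated 35Gy_7d cells, 2791 lay in cluster 0, described below. Hp (haptoglobin) had 116 CPM in 35Gy_7d and 0.297 CPM in 0Gy_7d, 389-fold higher. Leukocyte-gated cells held Hp too, at 91.7 CPM in 35Gy_7d and 11.9 CPM in 0Gy_7d, and the part of free leukocyte RNA was not tested. Lbp, which presents bacterial lipopolysaccharide, had 104 CPM in 35Gy_7d and 5.48 CPM in 0Gy_7d, 19.0-fold higher, and the metalloreductase Steap4 276 CPM in 35Gy_7d and 11.8 CPM in 0Gy_7d, 23.4-fold higher.

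In the prostaglandin pathway, 7 of 15 measured genes were at least 2-fold higher and 2 lower, with a median log2 ratio of 0.98. Pla2g2a, a secreted phospholipase that frees fatty acids from membranes, had 8913 CPM in 35Gy_7d cells and 54.0 CPM in 0Gy_7d cells, 165-fold higher (157 to 174). The cyclooxygenases differed in direction: Ptgs1 had 82.3 CPM in 35Gy_7d and 3.04 CPM in 0Gy_7d, 27.1-fold higher, and the inducible Ptgs2 39.7 CPM in 35Gy_7d and 145 CPM in 0Gy_7d, 3.65-fold lower. Ptges, the synthase that makes prostaglandin E, had 459 CPM in 35Gy_7d and 64.2 CPM in 0Gy_7d, 7.14-fold higher.

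Interferon and antigen presentation genes differed less. Of 23 interferon-stimulated genes 8 were at least 2-fold higher and none lower, with a median log2 ratio of 0.58, and of 10 MHC class I genes 3 were higher and none lower, with a median of 0.63. Among genes that met the free RNA rule the medians were 0.73 over 12 interferon-stimulated genes and 0.31 over 6 MHC class I genes. Ifitm3, an antiviral membrane protein, had 5049 CPM in 35Gy_7d and 2264 CPM in 0Gy_7d, 2.23-fold higher, and Mx1 had 31.1 CPM in 35Gy_7d and 1.19 CPM in 0Gy_7d, 26.1-fold higher. Isg15 had 42.3 CPM in 35Gy_7d and 18.7 CPM in 0Gy_7d, 2.26-fold higher, but did not meet the free RNA rule. B2m, the light chain of MHC class I, had 2564 CPM in 35Gy_7d and 3792 CPM in 0Gy_7d, 1.48-fold lower, while the immunoproteasome subunit Psmb9 had 74.7 CPM in 35Gy_7d and 23.4 CPM in 0Gy_7d, 3.19-fold higher.

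**Figure D3:**
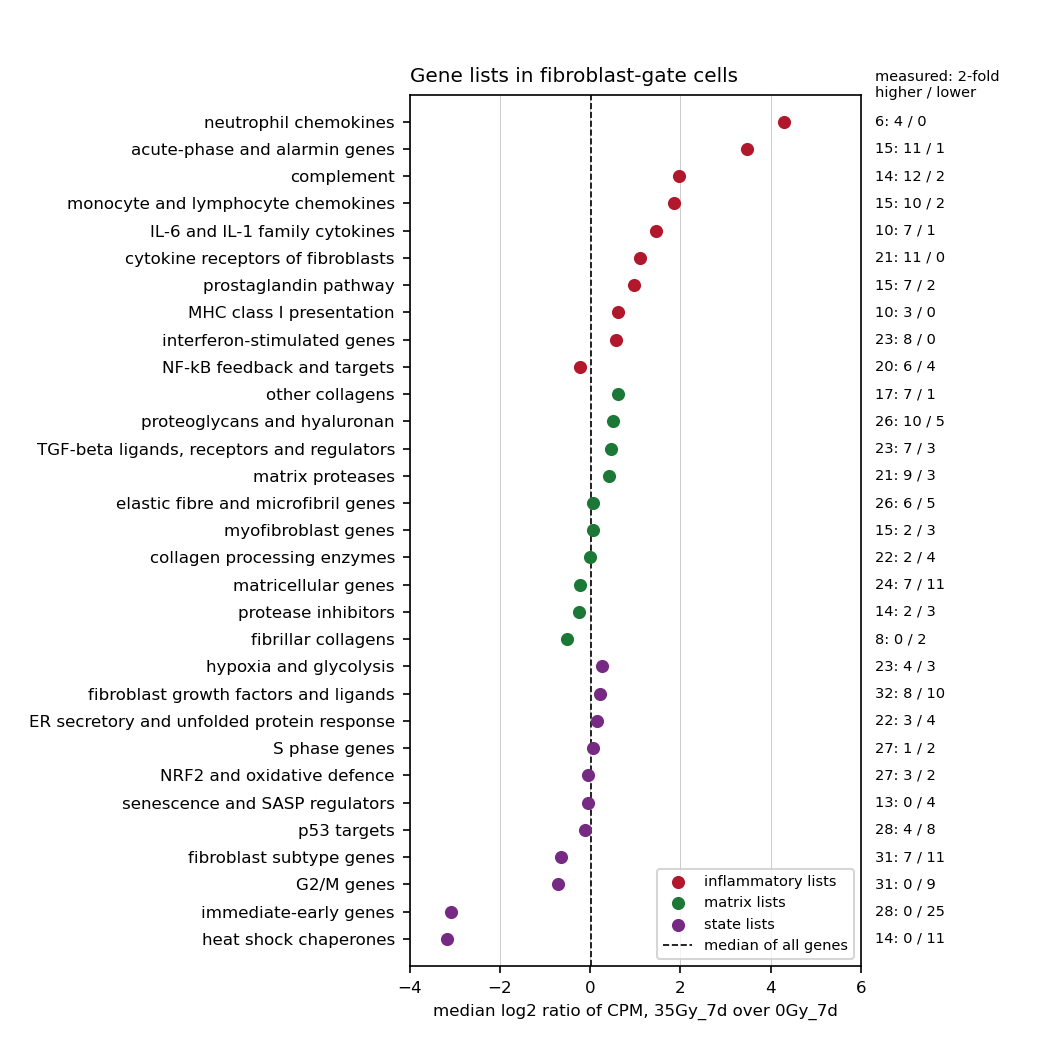
Median log2 ratio of CPM (35Gy_7d over 0Gy_7d) for 31 gene lists, with the number of genes measured and the numbers at least 2-fold higher and lower at the right, and the median of all genes as a dashed line. Chemokine, acute-phase and complement lists lie to the right, most matrix lists lie near the line, and immediate-early and heat shock lists lie at -3.08 and -3.16.

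The fibrillar collagens, the tensile core of the matrix, were mostly lower by modest folds: 7 of 8 measured were lower. Of the 8, none was higher by 2-fold or more and 2 were lower by as much, with a median log2 ratio of -0.51. Col3a1 had 9968 CPM in 35Gy_7d cells and 18321 CPM in 0Gy_7d cells, 1.84-fold lower, and Col1a1 5007 CPM in 35Gy_7d and 6887 CPM in 0Gy_7d, 1.38-fold lower. Both belong to the gate, as do Dcn and Lum, so their levels are given as a description. Col1a1 and Col3a1 also count in the values of the fibrillar collagen list, which are a description for the same reason. Col5a3 had 88.3 CPM in 35Gy_7d and 237 CPM in 0Gy_7d, 2.68-fold lower, and Col5a2 of collagen V, which helps start fibrils, had 169 CPM in 35Gy_7d and 250.2 CPM in 0Gy_7d, 1.48-fold lower.

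Among other collagens 7 of 17 were at least 2-fold higher and 1 lower, with a median log2 ratio of 0.62. The free RNA rule was met by 13 of them, 4 at least 2-fold higher and 1 lower, with a median of 0.49. Col12a1, which coats fibrils, had 366 CPM in 35Gy_7d and 53 CPM in 0Gy_7d, 6.90-fold higher (6.42 to 7.42). Col6a1, of the microfibrillar collagen VI, stood at 181 CPM in 35Gy_7d and 184 CPM in 0Gy_7d. Col4a1 of basement membranes had 844 CPM in 35Gy_7d and 309 CPM in 0Gy_7d, 2.73-fold higher, and did not meet the free RNA rule. Of 22 collagen processing enzymes 2 were at least 2-fold higher and 4 lower, with a median log2 ratio of 0.0059. The crosslinking enzyme Lox had 540.3 CPM in 35Gy_7d and 156 CPM in 0Gy_7d, 3.46-fold higher, whereas the prolyl hydroxylase P4ha2 had 60.3 CPM in 35Gy_7d and 174 CPM in 0Gy_7d, 2.88-fold lower. The collagen chaperone Serpinh1 had 908 CPM in 35Gy_7d and 1346 CPM in 0Gy_7d, 1.48-fold lower.

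Proteoglycans split by gene, 10 of 26 at least 2-fold higher and 5 lower, with a median log2 ratio of 0.51 that ran from 0.07 to 0.60 over the alternatives. The free RNA rule was met by 20 of them, 7 at least 2-fold higher and 5 lower, with a median of 0.15. Dcn and Lum are proteoglycans that belong to the gate, so the values of this list are in part drawn from gate genes. Dcn (decorin) had 15492 CPM in 35Gy_7d and 10561 CPM in 0Gy_7d, 1.47-fold higher, and its relative Lum (lumican) 2199 CPM in 35Gy_7d and 5067 CPM in 0Gy_7d, 2.30-fold lower. Aspn (asporin), which binds TGF-beta, had 78.3 CPM in 35Gy_7d and 1100.2 CPM in 0Gy_7d, 14.0-fold lower. The hyaluronan synthases also differed: Has1 had 32.1 CPM in 35Gy_7d and 821 CPM in 0Gy_7d, 25.6-fold lower, and Has2 stood at 75.7 CPM in 35Gy_7d and 77.2 CPM in 0Gy_7d. The syndecan Sdc4 had 397 CPM in 35Gy_7d and 73.0 CPM in 0Gy_7d, 5.45-fold higher.

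Elastic fibre genes were evenly divided, 6 of 26 at least 2-fold higher and 5 lower, with a median log2 ratio of 0.061. Fbn1, the microfibril backbone, stood at 1226 CPM in 35Gy_7d and 1322 CPM in 0Gy_7d, and elastin, Eln, at 447 CPM in 35Gy_7d and 636 CPM in 0Gy_7d. Mfap5, a microfibril component, had 572 CPM in 35Gy_7d and 2724 CPM in 0Gy_7d, 4.76-fold lower. Fbln1 (fibulin 1) had 1254 CPM in 35Gy_7d and 199.8 CPM in 0Gy_7d, 6.28-fold higher, and Emilin1 226 CPM in 35Gy_7d and 43.1 CPM in 0Gy_7d, 5.25-fold higher. Mgp, an inhibitor of calcification that sits in the matrix, was the most abundant gene named here in the irradiated cells, at 55443 CPM in 35Gy_7d and 4635 CPM in 0Gy_7d, 12.0-fold higher.

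Matricellular genes, whose proteins signal from the matrix and do not build it, were at least 2-fold higher in 7 of 24 cases and lower in 11. Their median log2 ratio of -0.22 ran from -0.77 to 0.22 over the alternatives. Tnc (tenascin C, a protein of wounds) had 712 CPM in 35Gy_7d and 44.7 CPM in 0Gy_7d, 15.9-fold higher (14.9 to 17.0). Postn (periostin), often raised in fibrosis, had 229.6 CPM in 35Gy_7d and 1364 CPM in 0Gy_7d, 5.94-fold lower. Spon1 had 153 CPM in 35Gy_7d and 2.87 CPM in 0Gy_7d, 53.2-fold higher, and Angptl4 480.2 CPM in 35Gy_7d and 13.1 CPM in 0Gy_7d, 36.6-fold higher.

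Of matrix proteases 9 of 21 were at least 2-fold higher and 3 lower, with a median log2 ratio of 0.41. Mmp2 (gelatinase A) had 2533 CPM in 35Gy_7d cells and 627 CPM in 0Gy_7d cells, 4.04-fold higher. Mmp3 (stromelysin) was scarce, with 65 UMIs in 35Gy_7d and 13 UMIs in 0Gy_7d. Adamts15, a proteoglycan-cleaving protease, had 62.7 CPM in 35Gy_7d and 7.37 CPM in 0Gy_7d, 8.51-fold higher. Of 14 protease inhibitors 2 were at least 2-fold higher and 3 lower, with a median log2 ratio of -0.25 that ran from -0.35 to 0.13 over the alternatives. Among the 8 that met the free RNA rule, 2 were at least 2-fold higher and 1 lower, with a median of 0.10. Timp1, which inhibits metalloproteinases, had 21073 CPM in 35Gy_7d and 1086 CPM in 0Gy_7d, 19.4-fold higher.

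TGF-beta pathway genes had a median log2 ratio of 0.47, 7 of 23 at least 2-fold higher and 3 lower. Tgfbr2 had 49.9 CPM in 35Gy_7d and 21.2 CPM in 0Gy_7d, 2.35-fold higher. The ligand Tgfb3 had 7.05 CPM in 35Gy_7d and 41.2 CPM in 0Gy_7d, 5.85-fold lower, and Tgfb1 had 53 CPM in 35Gy_7d and 23.6 CPM in 0Gy_7d, 2.24-fold higher, without meeting the free RNA rule. Fst (follistatin), which binds activins, had 216 CPM in 35Gy_7d and 54.9 CPM in 0Gy_7d, 3.94-fold higher. Chrdl2, a secreted BMP antagonist, had 433 CPM in 35Gy_7d and 0.396 CPM in 0Gy_7d, 1093-fold higher (624 to 2119), and Grem1 (gremlin 1), another BMP antagonist, 565 CPM in 35Gy_7d and 7.30 CPM in 0Gy_7d, 77.4-fold higher.

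Myofibroblast genes showed no common direction. Of 15 myofibroblast genes 2 were at least 2-fold higher and 3 lower, with a median log2 ratio of 0.06. These counts lie near the shares over all genes, 9.47% higher and 13.6% lower. The free RNA rule was met by 5 of the 15, of which 2 were at least 2-fold higher and 1 lower. Acta2, smooth muscle actin, stood at 12.8 CPM in 35Gy_7d and 14.1 CPM in 0Gy_7d, and Tagln at 66.1 CPM in 35Gy_7d and 63.4 CPM in 0Gy_7d. Both were far higher in mural cells and did not meet the free RNA rule, and the gate itself removes cells with Myh11. Cthrc1, a marker of matrix-producing fibroblasts, had 159 CPM in 35Gy_7d and 58.8 CPM in 0Gy_7d, 2.70-fold higher, and the collagen receptor Itga11 4.18 CPM in 35Gy_7d and 56.9 CPM in 0Gy_7d, 13.6-fold lower.

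**Figure D4:**
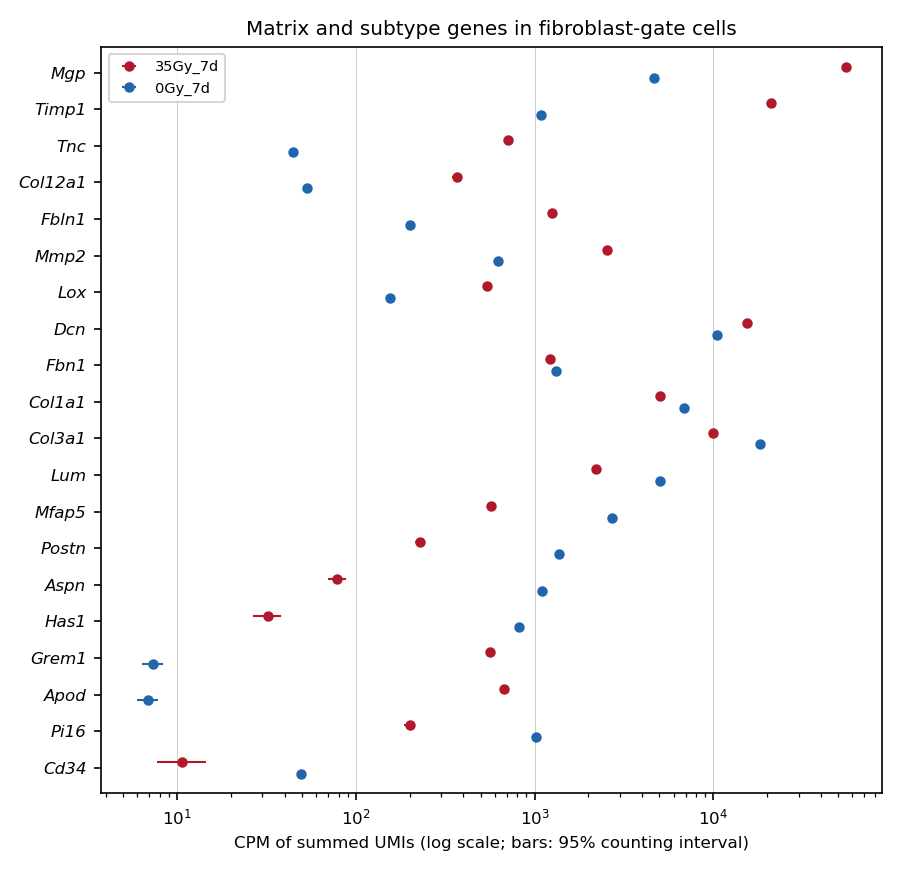
CPM of summed UMIs on a log axis for 20 matrix and fibroblast subtype genes in gated cells of 35Gy_7d and 0Gy_7d, 1 pool each, with exact 95% Poisson intervals. Mgp and Timp1 are the highest in 35Gy_7d, Col1a1, Dcn and Fbn1 lie close together in the 2 pools, and Postn, Aspn and Has1 are lower in 35Gy_7d.

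Genes that mark fibroblast subtypes differed in both directions, 7 of 31 at least 2-fold higher and 11 lower, with a median log2 ratio of -0.64. Pi16, which marks adventitial fibroblasts, had 201 CPM in 35Gy_7d and 1015 CPM in 0Gy_7d, 5.05-fold lower, and Cd34 10.7 CPM in 35Gy_7d and 49.4 CPM in 0Gy_7d, 4.61-fold lower. Cilp had 212 CPM in 35Gy_7d and 444 CPM in 0Gy_7d, 2.10-fold lower, and Islr 43.4 CPM in 35Gy_7d and 413 CPM in 0Gy_7d, 9.54-fold lower. Apod (apolipoprotein D) had 679 CPM in 35Gy_7d and 6.84 CPM in 0Gy_7d, 99.3-fold higher. In the 49 cells of cluster 6, described below, Apod reached 6428 CPM with a UMI in 20.4% of cells.

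Among growth factors and ligands 8 of 32 were at least 2-fold higher and 10 lower, with a median log2 ratio of 0.21. Igf1 had 1425 CPM in 35Gy_7d cells and 513 CPM in 0Gy_7d cells, 2.78-fold higher. Fgf7, which feeds epithelial growth, had 120.1 CPM in 35Gy_7d and 5.72 CPM in 0Gy_7d, 21.0-fold higher, and Hgf, also a growth factor for epithelium, 66.6 CPM in 35Gy_7d and 21.8 CPM in 0Gy_7d, 3.05-fold higher. Bmp2 had 22.2 CPM in 35Gy_7d and 152 CPM in 0Gy_7d, 6.85-fold lower. The IGF binding proteins differed in direction: Igfbp4 had 2956 CPM in 35Gy_7d and 428 CPM in 0Gy_7d, 6.90-fold higher, and Igfbp6 537 CPM in 35Gy_7d and 3071 CPM in 0Gy_7d, 5.72-fold lower.

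Targets of p53, the DNA damage response factor, showed no common direction at day 7. Of 28 p53 targets 4 were at least 2-fold higher and 8 lower, and the median log2 ratio of -0.11 ran from -0.22 to 0.44 over the alternatives. Cdkn1a, the cell cycle inhibitor p21, had 248 CPM in 35Gy_7d and 131 CPM in 0Gy_7d, 1.90-fold higher (1.77 to 2.04). Ccng1 had 165 CPM in 35Gy_7d and 54.8 CPM in 0Gy_7d, 3-fold higher, and the nuclease gene Aen 44.1 CPM in 35Gy_7d and 6.44 CPM in 0Gy_7d, 6.85-fold higher. Mdm2, the p53 inhibitor, had 55.6 CPM in 35Gy_7d and 113 CPM in 0Gy_7d, 2.03-fold lower, and Btg2, also an early response gene, 250.2 CPM in 35Gy_7d and 3028 CPM in 0Gy_7d, 12.1-fold lower. Of 13 senescence genes none was at least 2-fold higher and 4 were lower, with a median log2 ratio of -0.055 that ran from -0.36 to 0.36. Cdkn2a, the senescence marker p16, had 0 UMIs in 35Gy_7d and 7 UMIs in 0Gy_7d, too few to compare.

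Proliferation genes were low in both pools. Of 31 G2/M genes none was at least 2-fold higher and 9 were lower, and 1 of the 31 met the free RNA rule. Mki67 stood at 15.9 CPM in 35Gy_7d and 28.6 CPM in 0Gy_7d, and Top2a at 19.6 CPM in 35Gy_7d and 29.5 CPM in 0Gy_7d, below other cell types, among which Mki67 reached 168 CPM in 35Gy_7d and 174 CPM in 0Gy_7d. Of 27 S phase genes 1 was at least 2-fold higher and 2 lower, with a median log2 ratio of 0.054, against -0.72 for the G2/M genes. The G2/M median ran from -1.13 to -0.14 over the alternatives. The log2 ratio of Mki67 was -0.85, and 0.38 with cells weighted equally. That of Top2a was -0.59, and 0.39 with the gate at 200 per 10000.

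The largest differences downward were in genes of acute stress. Of 28 immediate-early genes 25 were at least 2-fold lower and none higher, with a median log2 ratio of -3.08, and of 14 heat shock chaperones 11 were lower and none higher, with a median of -3.16. Atf3 had 12.0 CPM in 35Gy_7d cells and 6168 CPM in 0Gy_7d cells, 513-fold lower (385 to 701), and Fos 359.9 CPM in 35Gy_7d and 11564 CPM in 0Gy_7d, 32.1-fold lower. Jun, the AP-1 partner of Fos, had 278 CPM in 35Gy_7d and 8654 CPM in 0Gy_7d, 31.1-fold lower, and Klf6 2.35 CPM in 35Gy_7d and 100.4 CPM in 0Gy_7d, 42.7-fold lower. Hspa1b, an inducible Hsp70, had 254 CPM in 35Gy_7d and 7461 CPM in 0Gy_7d, 29.4-fold lower.

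Both lists had medians below 0 in the other cell types of the 35Gy_7d library too. The immediate-early list had medians of -3.31, -2.77, -3.00 and -2.81 in epithelial, endothelial, leukocyte and mural cells. The heat shock list had -1.57, -1.87, -3.14 and -1.05 in the same order, against -3.16 in the fibroblast gate. Fos in fibroblast-gated cells stood at 3.42 CPM in 5x7Gy_7d and 11102 CPM in 5x7Gy_14d, beside 359.9 CPM in 35Gy_7d and 11564 CPM in 0Gy_7d. Nfkbia, Irf1, Btg2 and Has1 were likewise lower in 35Gy_7d and 5x7Gy_7d than in 5x7Gy_14d and 0Gy_7d, with Has1 at 17.1 CPM in 5x7Gy_7d and 772 CPM in 5x7Gy_14d. The 5x7Gy_7d gate held 119 cells and 292096 UMIs, so its Fos and Has1 values rest on very few UMIs. The part of handling, storage and digestion in these values was not tested.

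Metabolic and secretory lists lay near the median of all genes. Hypoxia and glycolysis genes had a median log2 ratio of 0.27, oxidative defence genes -0.044 and secretory pathway genes 0.16. Fth1, the ferritin heavy chain that stores iron, had 10815 CPM in 35Gy_7d and 3874 CPM in 0Gy_7d, 2.79-fold higher, while the light chain Ftl1 had 1310.2 CPM in 35Gy_7d and 2001 CPM in 0Gy_7d, 1.53-fold lower. Ddit3 (CHOP), of the unfolded protein response, had 37.6 CPM in 35Gy_7d and 261 CPM in 0Gy_7d, 6.94-fold lower.

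The 617 cells were not uniform. Clustered alone, they fell into 8 groups of 15 to 141 cells, described here by listed genes and by some of their leading genes, and given no names. Cluster 4, 67 cells or 10.9% of the gate, held the highest levels of Cxcl3 (1852 CPM), Il11 (1059 CPM), Cxcl6 (1921 CPM), Lcn2 (12318 CPM), Ptges (1865 CPM) and Tnc (2907 CPM). Its Col3a1, at 1581 CPM, was the lowest of the 8 clusters. Its Col1a1, at 1390 CPM, was not the lowest, with 872 CPM in cluster 0 and 1220 CPM in cluster 6. In cluster 3, 72 cells, Col3a1 stood at 27170 CPM and Col1a1 at 15135 CPM, the highest of all, beside 6.10 CPM of Cxcl6 and 134 CPM of Lcn2. Cluster 3 was not low in every inflammatory gene. Its leading genes included the interferon-induced chemokine Cxcl10, at 321 CPM and 5.40 CPM in the rest of the gate, with a UMI in 8.33% of its cells, and Isg15, at 214 CPM and 17.1 CPM in the rest. Ptx3 stood at 2458 CPM in cluster 4 and 2661 CPM in cluster 3, and Ccl7 at 4033 CPM in cluster 4 and 1758 CPM in cluster 3. Dcn stood at 16513 CPM in cluster 4 and 15906 CPM in cluster 3.

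The inflammatory genes were spread differently over the other clusters. Cluster 0, 141 cells, had the highest C3 (662 CPM) and Mgp (102750 CPM), with 232 CPM of Cxcl6. Cluster 1, 133 cells led by Igfbp2, Crabp1 and Apcdd1, had 1167 CPM of Cxcl6 and 21.3 CPM of C3. It held this Cxcl6 beside 10232 CPM of Col3a1 and 5700 CPM of Col1a1, so high Cxcl6 did not always go with low collagen. Cluster 5, 59 cells, held Cilp (1256 CPM), Mfap5 (2412 CPM) and Ccn2 (769 CPM, a TGF-beta responsive gene) with 19.1 CPM of Cxcl6. Timp1 stood at 969 CPM in cluster 7, 4168 CPM in cluster 6 and higher in the other 6 clusters.

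Clusters 2, 6 and 7 stood apart and carried signs of other cells, though such markers were not confined to them. Cluster 1 had 2 mural markers at least 2-fold above the other cells, and Abcc9 had a UMI in 87.2% of its cells. Cluster 4 had 2 markers of the mesothelial and adipose list above by as much. Cluster 2, 81 cells, had a median of 758 UMIs per cell and 10.1% mitochondrial UMIs, with S100a8 and S100a9 among its leading genes. Cluster 6, 49 cells, had a median of 1047 UMIs, Ccl19, Myoc and Des among its leading genes, and 4 mural markers at least 2-fold above the other cells. Cluster 7, 15 cells, led by Scn7a and Lgi4, held 8 glial markers at least 2-fold above the others. Without these 3 clusters the log2 ratios of Cxcl6, Lcn2 and C3 were 13.55, 11.62 and 9.28. Only 35Gy_7d cells were left out here, 472 remaining, while all 4397 cells of 0Gy_7d, which were not clustered, were kept.

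**Figure D5:**
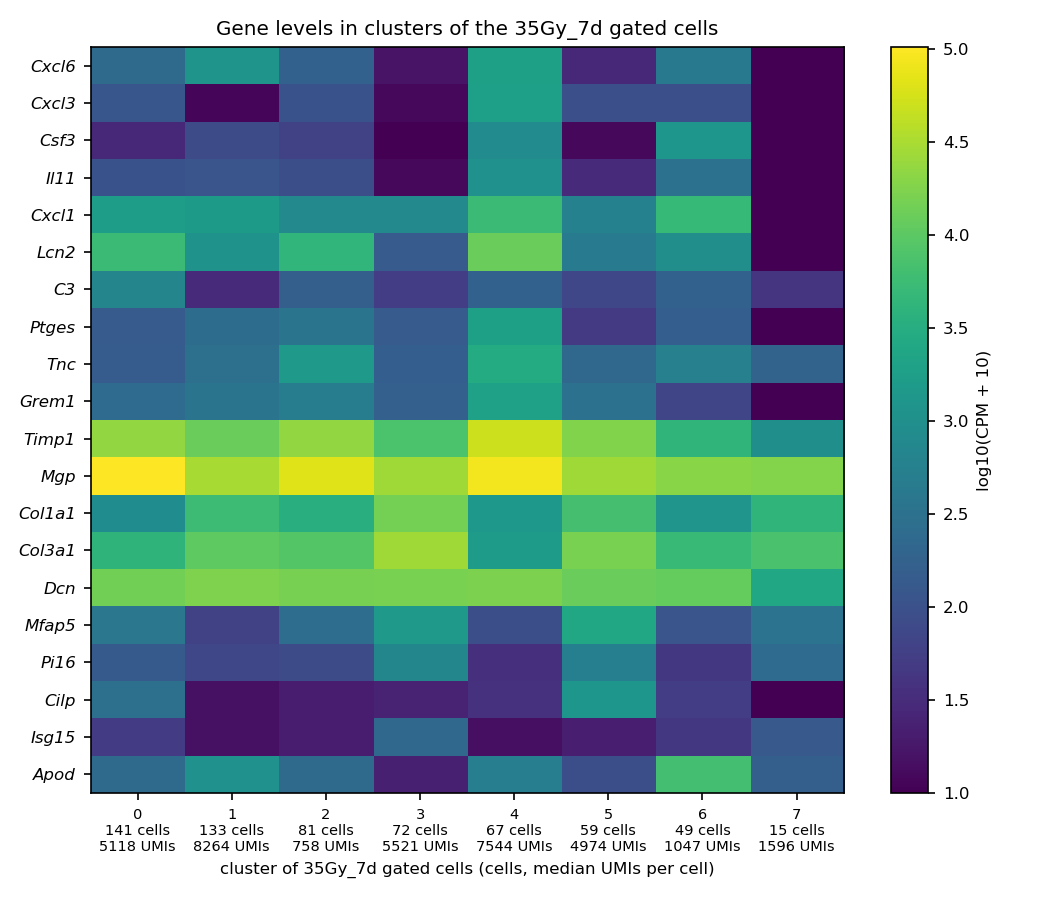
Colour gives log10(CPM + 10) of 20 genes in the 8 clusters of the 617 gated 35Gy_7d cells, with the number of cells and the median UMIs per cell under each cluster. Cluster 4 is highest for Cxcl3, Il11 and Lcn2 and lowest for Col3a1, cluster 3 is the highest for Col1a1 and Col3a1, and Dcn lies between 11566 and 17284 CPM in clusters 0 to 6.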

How the data were processed

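Each library's deposited file is a table of raw UMI counts for 32623 features by barcode, not normalized. Cell Ranger 5.0.0 is the tool in the submitters' processing notes, which list rn7 and mRatBN7.2 as builds; which annotation release was used is not given in the sources used. Libraries held 59805782 to 109618791 UMIs in 10468 to 12505 barcodes. Pools 35Gy_7d and 0Gy_7d shared 26 barcodes, none of them gated in both.

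Counts of features with the same symbol were summed. Raw counts of gated cells were summed per library, scaled to CPM and compared as ratios with exact conditional binomial 95% intervals; CPM carry exact Poisson and shares exact Clopper-Pearson intervals. A gene at 0 in 1 library was set to a floor of 3 counts over the group. With 1 pool per group no test was made. Genes with at least 20 UMIs in the pair were used. Comparison gates needed at least 50 cells. Doublets were kept in the main values; Scrublet calls (4 gated cells of 35Gy_7d, 220 of 0Gy_7d) were left out as an alternative.

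The members, the 31 gene lists and the 16 marker lists were chosen with earlier results of these data known. Of 785 listed symbols 752 matched a feature name, and the others, Pecam1 among them, were not analysed here, so the gate was applied without its Pecam1 criterion and the endothelial gate used Cdh5. Named genes were fixed anchors of each list, up to 4 members per list with the largest fold in either direction and the 10 higher and 10 lower genes with the largest fold, with order set by whichever end of the interval lies closer to 1, for genes of 50 UMIs or more that meet the free RNA rule. Cell type markers such as Pdgfra and Cdh5 were added.

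Gated 35Gy_7d cells were clustered by Leiden (scanpy 1.11.5, leidenalg 0.10.2) at resolution 0.5 on 2000 variable genes, 20 components and 15 neighbours. Ratios were tested on simulated data. Python 3.11.15, scipy 1.17.1 and pandas 2.3.3 were used. Alternatives changed the scaling, weighting of cells, UMI minimum per gene, gate threshold, cell filter, doublets and cells with markers of other types. The exclusion of cells with endothelial UMIs and of clusters 2, 6 and 7 was added after seeing the data.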

Additional observations from a re-analysis of the deposited data

Results flagged for a closer look

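Several lists had medians of opposite sign in the fibroblast gate and in another gate of the same libraries. A list is given here where both medians were at least 0.5 on the log2 scale in size and at least 5 genes were measured, a size set with the values in view. Each value is a median log2 ratio of CPM, 35Gy_7d over 0Gy_7d. With 1 pool per group no difference between gates was tested.

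Chemokine lists were higher in fibroblast-gated cells and lower in some other gates. The neutrophil chemokines had a median of 4.29 in the fibroblast gate, -1.17 in the endothelial gate and -0.64 in the leukocyte gate, but 1.80 in the epithelial gate. The monocyte and lymphocyte chemokines had 1.86 in the fibroblast gate, -1.13 in the epithelial gate and -0.96 in the leukocyte gate, but 0.66 in the mural gate. The IL-6 and IL-1 family cytokines had 1.45 in the fibroblast gate and -0.53 in the epithelial gate.

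Among matrix genes, other collagens had 0.62 in the fibroblast gate, -1.33 in the epithelial gate and -0.89 in the leukocyte gate. Proteoglycans and hyaluronan genes had 0.51 in the fibroblast gate, -1.08 in the epithelial, -0.91 in the endothelial and -1.37 in the leukocyte gate. With only genes that met the free RNA rule, the fibroblast gate medians were 0.49 for other collagens and 0.15 for proteoglycans. Both lie below the size of 0.5 set above. Fibroblasts were 6.33% of cells in 35Gy_7d and 37.2% in 0Gy_7d, and the part of free fibroblast RNA in the values of the other gates was not tested.

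Interferon-stimulated genes had 0.58 in the fibroblast gate and -0.52 in the endothelial gate, and MHC class I genes 0.63 in the fibroblast gate and -0.58 in the mural gate. With only genes that met the free RNA rule, the fibroblast gate medians were 0.73 for interferon-stimulated genes and 0.31 for MHC class I genes. The latter lies below the size of 0.5.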

How the results depend on the processing

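No paired analysis was possible because each group is 1 pool with no replicate to pair or to leave out. The count of genes at least 2-fold higher in gated cells, 1162, was 710 with a minimum of 100 UMIs per gene and 4641 with no minimum, where fewer or more genes are counted. The log2 ratio of the gated share, -2.55, was -2.89 with the gate at 200 per 10000 and -2.90 with at least 1000 UMIs and at most 10% mitochondrial UMIs; the cause was not tested. The other 51 main values under an alternative stayed within set limits. For the share the limit was its counting interval, and for counts it was 1.5 times. For medians it was the span from the median lower bound to the median upper bound of the member genes. Such a span is not an interval of the median itself. Among list medians 21 left this span and 289 did not. Among values of named genes 319 left the gene's counting interval and 1159 did not. Among named genes at least 2-fold apart, 2 values reversed: Lrrc15, at 1 UMI in 35Gy_7d and 16 UMIs in 0Gy_7d, had a log2 ratio of 0.74 without cells holding endothelial UMIs, and Rrm2 -0.23 with cells weighted equally, against 1.28. Of results less than 2-fold apart, 14 named genes and 9 list medians changed sign under at least 1 alternative. Depth limits most the 5x7Gy_7d values, which rest on 292096 gated UMIs, and genes with few UMIs in 0Gy_7d, whose folds have wide intervals.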
